A study of Brassica rapa subsp. pekinensis with 6 samples.

Results

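Among the genes that the authors' deposited table lists as different between leaves of doubled haploid and autotetraploid Chinese cabbage, 4 had a STAY-GREEN protein as their best Swiss-Prot hit. They are the members described here, out of 13225 listed genes. Several copies of one Arabidopsis gene are common in Brassica rapa, whose genome descends from an ancient triplication, and 3 of the members matched the same Arabidopsis protein, STAY-GREEN 1 (evm.TU.BraA01001706, evm.TU.BraA03005404 and evm.TU.BraA08001500). The other, evm.TU.BraA03002933, matched STAY-GREEN 2. The members were chosen by the wording of the protein hit and by a place in the table, so they were selected on the authors' adjusted p, which is under 0.05 for every listed gene in this same contrast. The changes of the members are therefore given as a description, and no test of them was made here. A search of every text column for the same word found the same 4 genes.

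STAY-GREEN proteins are magnesium dechelatases of the chloroplast. They take the magnesium ion out of chlorophyll a, the step that commits the pigment to breakdown, and they bind the light-harvesting complexes that carry it. Plants that lack the main gene keep green leaves or seeds while they age, and the green cotyledons of Mendel's peas go back to such a mutation. In Arabidopsis, STAY-GREEN 1 is the main form of senescing leaves. For its paralogue STAY-GREEN 2 both promoting and restraining roles in chlorophyll loss have been described in Arabidopsis.

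The plants were Brassica rapa subsp. pekinensis. Each ploidy level was represented by 3 libraries, titled L2x for the doubled haploid plants and L4x for the autotetraploid plants, and the submitters call them biological replicates. Both kinds of plant came from the single doubled haploid line FT and shared their growing conditions, so the groups differ by label in ploidy alone and rest on 1 genotype. When plants had begun to bolt, mature main-stem leaves from beneath the lowest branch were taken. The authors' deposited table gives each gene 1 normalised read count per group, that is, reads divided by a size factor for each library and then averaged over the 3 libraries. Counts were scaled between libraries, so a higher or lower value is relative to the other genes, and RNA per cell was not measured. In whole leaves, fewer cells of one type and less RNA in each of them cannot be told apart. Leaf markers were abundant, with 38 listed genes for the Rubisco small chain, Rubisco activase and chlorophyll a-b binding proteins summing to 792669 normalised counts in doubled haploid and 1298170 in autotetraploid leaves.

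Of the members, 3 STAY-GREEN genes were lower in autotetraploid leaves and 1 was higher. By the authors' test 37.8% of the 34980 genes tested were listed, 18.9% as higher and 18.9% as lower, and nothing is read from the members' count against these shares, since being listed chose them. The adjusted p of the members ran from 1.23e-136 to 4.24e-08 in the authors' deposited table, all under 0.05 because being listed requires it. Genes that were tested but not listed were not analysed here. The 4 changes ranged from a log2 fold change of -6.56 to one of 0.87.

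The STAY-GREEN 2 gene, evm.TU.BraA03002933, showed the widest change of the members. Its reads could be worked back to single libraries, because only certain combinations of whole reads and size factors can give a mean that is deposited to 10 digits. Exactly 1 set of whole reads gave each of its means. In doubled haploid leaves the libraries held 451.7, 457.8 and 535 normalised counts (mean 482 ± 46.6, SD, n = 3), from 504, 420 and 579 reads. In autotetraploid leaves they held 2.02, 5.40 and 7.90 normalised counts (mean 5.11 ± 2.95, SD, n = 3), from 2, 5 and 8 reads. All autotetraploid libraries lay far below all doubled haploid ones, and the groups did not overlap. The ratio was a fall of 94.3-fold, with a 95% exact binomial interval of 57.0 to 169 that covers counting error only. By size this was place 116 among the 6611 listed falls. Ahead of it were 104 genes at 0 in autotetraploid leaves, for which the ratio has no finite size.

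The STAY-GREEN 1 gene evm.TU.BraA01001706 also fell. Its mean was 2224 normalised counts in doubled haploid and 539 in autotetraploid leaves, a log2 fold change of -2.04 or 4.12-fold, with a counting interval of 3.90 to 4.36. Its libraries could not be worked back to 1 answer, since 6 sets of whole reads gave the autotetraploid mean and 79 sets the doubled haploid mean. The most even autotetraploid set had 521, 539 and 557 normalised counts. How even libraries usually are was read from 1109 listed genes with an autotetraploid mean of 50 to 100, where every set was unique. The highest library was at most 1.77 times the lowest in 95% of them. For 1168 genes with such a doubled haploid mean it was 1.63 times. All STAY-GREEN 1 genes had means above 100, where counting error is smaller, so these limits may be too wide for them. The limits may also be too narrow, because the authors' test in this same contrast favours listing genes with even libraries. Within those limits, 3 autotetraploid sets remained for this gene, with libraries between 408 and 706. In the doubled haploid group 4 sets remained, with libraries between 1853 and 2890, and the groups did not overlap in any of them. Since the limits rest on listed genes, this is a description and no support for the change. The same holds where these limits are used for the other STAY-GREEN 1 genes. Some sets beyond those limits did overlap, and which set is true is not known.

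A second STAY-GREEN 1 gene, evm.TU.BraA03005404, differed less between the groups. Its mean was 996 normalised counts in doubled haploid and 701 in autotetraploid leaves, a fall of 1.42-fold (counting interval 1.342 to 1.502). Of 2 possible sets of reads in the doubled haploid group, the even one held 968, 1008 and 1012 normalised counts, and the other spread its libraries 22.6-fold. Of 6 sets in the autotetraploid group, the most even held 696, 700.4 and 708. A further set within the usual evenness ran from 587 to 850, and in both the groups stayed apart from the even doubled haploid set. The other 4 sets, less even than that, had a highest library of 999 to 1446 and overlapped it.

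The third STAY-GREEN 1 gene, evm.TU.BraA08001500, went the other way. In doubled haploid leaves its reads had 1 solution, with 238, 245 and 257 normalised counts (mean 247 ± 9.89, SD, n = 3). Its autotetraploid mean was 452, a rise of 1.83-fold with a counting interval of 1.673 to 2.004. Among 6 possible autotetraploid sets, 1 was within the usual evenness, and it held 440, 455 and 460 normalised counts. In that set every autotetraploid library was above every doubled haploid library. In 3 of the other sets at least 1 library fell below the highest doubled haploid library.

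**Figure D1:**
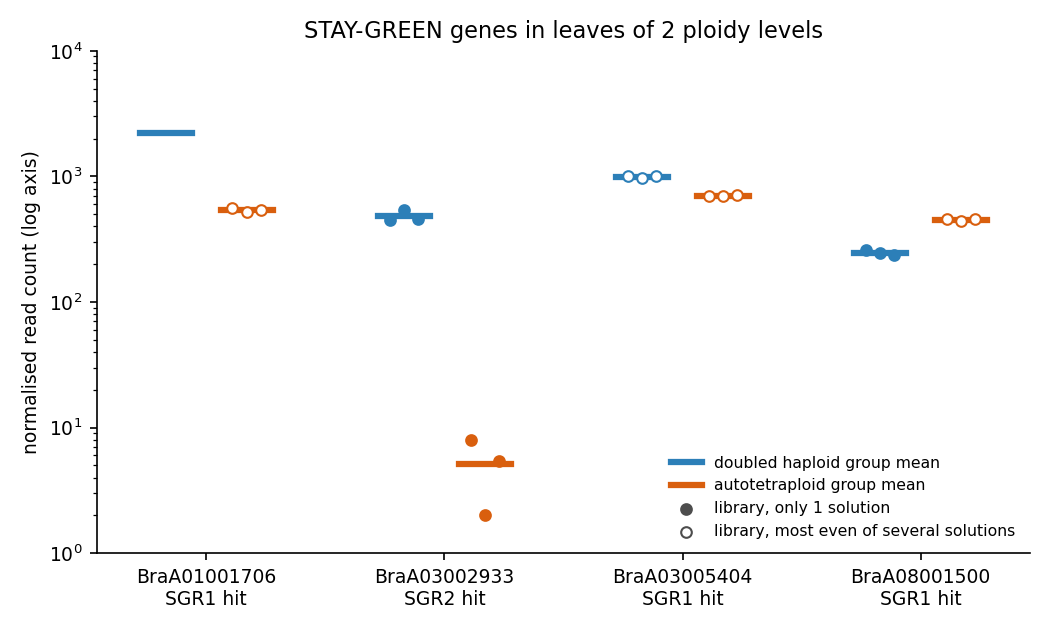
Normalised read count (log axis) of the 4 STAY-GREEN genes in doubled haploid (blue) and autotetraploid (orange) leaves. Thick bars are the authors' group means, filled points are libraries whose reads had 1 solution, and open points are the most even of several solutions; no points are drawn for the doubled haploid group of BraA01001706, which had 79 solutions. The STAY-GREEN 2 gene BraA03002933 drops from 482 to 5.11, and BraA08001500 is the only member with a higher autotetraploid mean.

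The 3 genes that match STAY-GREEN 1 thus changed by different amounts and in both directions. Their log2 fold changes spanned 2.92, so that the ratio of BraA08001500 to BraA01001706 was 7.55-fold higher in autotetraploid than in doubled haploid leaves. Between BraA03005404 and BraA01001706 the same comparison gave 2.91-fold, and between BraA08001500 and BraA03005404 it gave 2.60-fold. Of 438 Swiss-Prot proteins matched by exactly 3 listed genes above 0 in both groups, 139 (31.7%) had genes in both directions, and 59 (13.5%) had a span at least as wide. The median span over these proteins was 1.013. Copies that are nearly identical can share reads, and this was not examined, because no gene sequences were used.

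The summed reads of the 4 genes were lower in autotetraploid leaves, and their make-up differed. The sum was 3948 normalised counts in doubled haploid and 1697 in autotetraploid leaves, a fall of 2.33-fold. BraA01001706 held 56.3% of the doubled haploid sum and 31.8% of the autotetraploid sum. The STAY-GREEN 2 gene went from 12.2% to 0.301%. BraA03005404 went from 25.2% to 41.3%, and BraA08001500 from 6.25% to 26.6%. Without BraA01001706 the sum was 1.49-fold lower. These are shares of reads, not of transcripts, since gene lengths are not in the table.

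**Figure D2:**
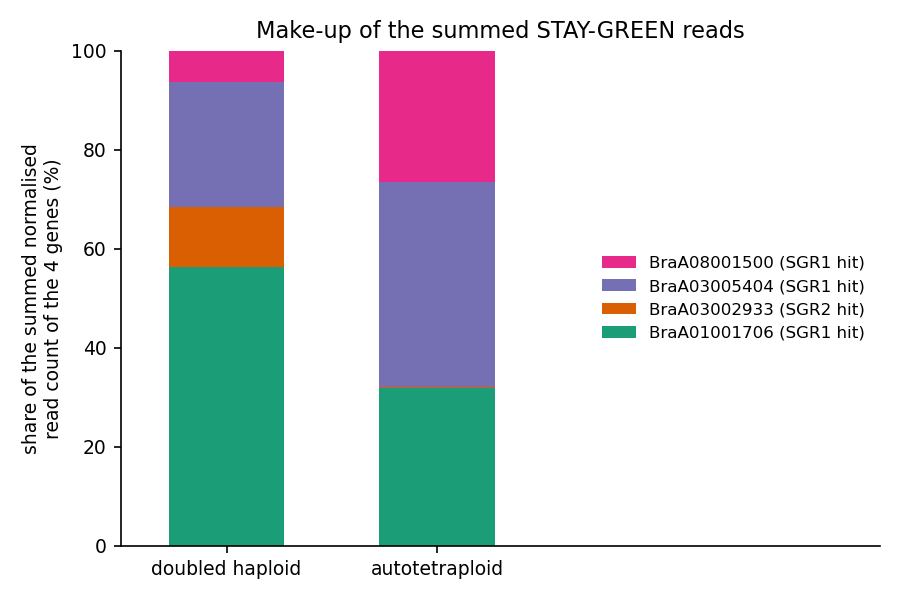
Share of the summed normalised read count of the 4 STAY-GREEN genes (%) held by each gene in doubled haploid and autotetraploid leaves, from the authors' group means. BraA01001706 shrinks from 56.3% to 31.8% and BraA08001500 grows from 6.25% to 26.6%.

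The position of the genes was read from their identifiers, which carry a chromosome code and a running number; no map onto a genome was used. Listed genes with the code A01 tended to be lower, with 27.9% of 1284 higher and a median log2 fold change of -0.53. For A03 the share was 55.4% and the median 0.31, and for A08 they were 55.2% and 0.29. The codes A02 to A10 all had medians above that of A01, from 0.18 to 0.35, and the code Sca had -0.21. BraA01001706, at -2.04, carries the code A01. So do genes named below for pheophorbide a oxygenase, red chlorophyll catabolite reductase, EIN3, WRKY53, SAG39 and 1 AGL19 copy, which fell. Others with this code that fell include glutamyl-tRNA reductase genes (evm.TU.BraA01002111 and evm.TU.BraA01002257). Neighbours of BraA01001706 for cysteine-rich receptor-like protein kinase 11, ACR7 and AHL2 are also among them. A pheophytinase match that rose (evm.TU.BraA01000237) carries the code A01 too. So do the rising genes for ABSCISIC ACID-INSENSITIVE 5-like protein 6 and, near BraA01001706, PGR5-like protein 1A and leucoanthocyanidin dioxygenase. The part of that tendency in any of these changes was not tested.

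Genes next to the 3 STAY-GREEN 1 members matched the same Swiss-Prot proteins at several places. None of those exact proteins was the best hit of a listed gene near the STAY-GREEN 2 gene, but relatives were: PGR5-like protein 1B lay 2 numbers away (log2 fold change -0.22), and cysteine-rich receptor-like protein kinases 45, 32 and 31 lay 1, 9 and 12 numbers away (-0.58, -1.93 and -2.44). Within 20 identifier numbers on either side, a window chosen after the data were seen, 6 proteins were matched near at least 2 of the members. A gene for AGL19, a MADS-box protein that promotes flowering in Arabidopsis, lay 9 numbers from BraA01001706, 2 from BraA03005404 and 3 from BraA08001500. All 3 fell, while a weaker match to AGL19 elsewhere (evm.TU.BraA02004321) was higher, at 0.25. That near BraA01001706 (evm.TU.BraA01001697) went from 296, 312 and 325 normalised counts in the doubled haploid libraries to 108, 117 and 126 in the autotetraploid ones. Its counterpart near BraA03005404 (evm.TU.BraA03005406) went from 206, 215 and 227 to 18.8, 27.0 and 37.3. Neither pair of groups overlapped. Near BraA08001500, evm.TU.BraA08001497 had means of 688 and 337, a log2 fold change of -1.03.

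The other shared neighbours also moved in 1 direction each. The 4 genes matching cysteine-rich receptor-like protein kinase 11 fell, with log2 fold changes from -2.64 to -1.96. Both genes for ACR7, a protein with ACT domains, fell, as did both for the AT-hook protein AHL2. Both genes for PGR5-like protein 1A, a part of cyclic electron flow around photosystem I, rose (0.47 near BraA01001706 and 0.94 near BraA03005404), and so did both for leucoanthocyanidin dioxygenase, an enzyme of anthocyanin synthesis (1.83 and 0.53). In all, 4 of these 15 genes rose and 11 fell. Among all 51 listed genes within 20 numbers of the 4 members, 16 rose and 35 fell, so lower genes were in the majority there as well. Over all 13225 listed genes, 6614 rose and 6611 fell. Near BraA01001706, whose code A01 had 27.9% higher genes, 3 rose and 11 fell. Near BraA03002933 it was 4 and 8, near BraA03005404 3 and 7, and near BraA08001500 6 and 9. Whether these counts depart from the rest of the listed genes was not tested. None of the 6 proteins had genes in both directions, and how often neighbouring copies share a direction was not tested. Around BraA08001500, itself higher, the AGL19 gene and both genes for kinase 11 fell, while those for cysteine-rich receptor-like protein kinases 18 and 17, which lie 9 and 8 numbers away, rose by 1.31 and 2.34.

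**Figure D3:**
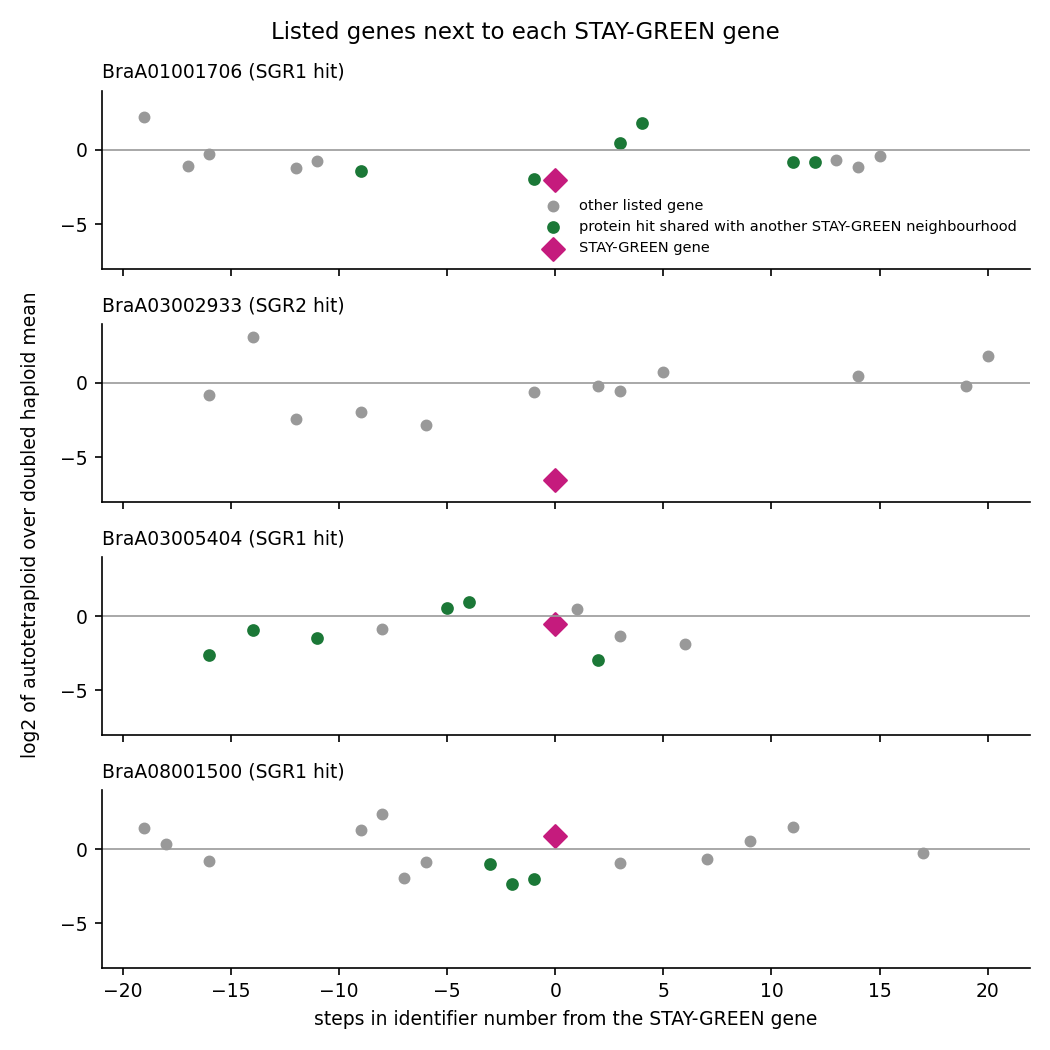
Log2 of the autotetraploid over the doubled haploid mean for listed genes within 20 identifier numbers of each STAY-GREEN gene (diamond), against the number of identifier steps. Green points have a protein hit that also occurs near another STAY-GREEN gene. The 15 green points lie only around the STAY-GREEN 1 genes, and the STAY-GREEN 2 gene at -6.56 lies below all of its listed neighbours.

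Genes with group means most like those of each member were found by distance in the plane of both log2 means, over 10380 described genes and 2 group means, which is a weak measure of likeness. For the STAY-GREEN 2 gene the nearest was a gene matching ABSCISIC ACID-INSENSITIVE 5 (evm.TU.BraA05001987), at a distance of 0.55 with means of 560 and 7.23. The next was a bHLH92 transcription factor gene (evm.TU.BraA09005782), with means of 349 and 4.11. For BraA01001706 they were genes matching the ubiquitin ligase RNF181 and NAC062, a membrane-bound NAC factor (evm.TU.BraA06003124, 2123 and 524). Those for BraA03005404 matched a subunit of the T-complex chaperonin and Derlin-1, and those for BraA08001500 a Golgi complex subunit and the trihelix factor GTL1. All 6 genes nearest to a STAY-GREEN 1 gene were within a distance of 0.08, closer than any was to the STAY-GREEN 2 gene.

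Regulators that are known in Arabidopsis to act on STAY-GREEN genes were split, with the larger changes downward. Of 18 listed genes, 8 rose and 10 fell, and of those with a mean of at least 100 normalised counts 8 rose and 6 fell. All 18 together had a median log2 fold change of -1.05 beside 0.16 over all listed genes. At 2-fold or more, 2 of the 18 rose and 9 fell. Of all 13225 listed genes, 16.6% rose and 23.0% fell by that much, which is 6.27% and 8.70% of all genes tested. ABSCISIC ACID-INSENSITIVE 5, a bZIP factor of abscisic acid signalling, was matched by 3 genes, and all 3 fell. The one with the most reads, evm.TU.BraA05001987, held 5.93, 6.05 and 9.72 normalised counts in the autotetraploid libraries against a doubled haploid mean of 560. A weaker match, evm.TU.BraA05001991 (BLAST E-value 1.82e-26 in the authors' deposited table), had 42.5, 53.6 and 61.8 in doubled haploid and 0, 0.988 and 3.02 in autotetraploid libraries, again without overlap. evm.TU.BraA04002806 was barely read, with 9, 4 and 6 reads against 1 read in all. A gene matching the related ABSCISIC ACID-INSENSITIVE 5-like protein 6 (evm.TU.BraA01000449) went the other way. It rose from 684 in doubled haploid to 944 in autotetraploid leaves, a log2 fold change of 0.47.

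Senescence-linked NAC factors and the ethylene factor EIN3 were lower too. In the authors' deposited table NAC019 (evm.TU.BraA06001894) fell from 4519 to 2024 and NAC016 (evm.TU.BraA05001833) from 1302 to 489. NAC092, known in Arabidopsis as the senescence regulator ORE1 (evm.TU.BraA04001164), held 85.1, 91.6 and 125 normalised counts in doubled haploid and 23.8, 31.6 and 46.4 in autotetraploid libraries, which did not overlap. EIN3 (evm.TU.BraA01002816) had a log2 fold change of -0.93, while its relative EIL1 (evm.TU.BraA03002674) had 0.33. Both genes for the light-signalling factor PIF4 fell (-1.40 for evm.TU.BraA03002369 and -1.35 for evm.TU.BraA04003094). Jasmonate factors went up, by 1.04 for MYC3 (evm.TU.BraA09005699) and 0.20 for MYC2 (evm.TU.BraA05001756). SOC1, a flowering factor that restrains STAY-GREEN 1 in Arabidopsis, was matched by 5 genes, of which 4 rose and 1 fell. The 1 that fell (evm.TU.BraA03001601) was barely read, with 7, 8 and 3 reads in doubled haploid and 1, 0 and 0 in autotetraploid libraries.

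Genes matched to other enzymes of chlorophyll breakdown had log2 fold changes from -0.80 to 1.08. Of 11 listed genes 5 rose and 6 fell, with a median of -0.18; 2 changed at least 2-fold, both upward. Of the 8 whose BLAST E-value was at most 1e-50, a limit chosen after the data were seen, 2 rose and 6 fell. By the authors' deposited table, pheophorbide a oxygenase, which opens the chlorophyll ring (evm.TU.BraA01003030), fell from 13727 to 8469. CYP89A9, which acts on the later catabolites (evm.TU.BraA03003329), fell from 8840 to 5082. Red chlorophyll catabolite reductase (evm.TU.BraA01000190, -0.52) and the chlorophyll b reductase NYC1 (evm.TU.BraA08000317, -0.18) were lower as well. Pheophytinase, which takes the product of STAY-GREEN as its substrate, was the best hit of 5 genes. The E-value was 0 for 2 of them, and both fell, with log2 fold changes of -0.74 for evm.TU.BraA02000554 and -0.70 for evm.TU.BraA03000622. The other 3 were weaker matches, with E-values of 2.18e-23, 5.94e-23 and 1.79e-15. All 3 rose, the most being evm.TU.BraA01000237, for which the authors' deposited table gives 987 in doubled haploid and 2092 in autotetraploid leaves. Chlorophyllase-1 (evm.TU.BraA06001198), an enzyme of chlorophyll hydrolysis, rose from 141 to 284. TIC 55 (evm.TU.BraA03002694) rose too, with a log2 fold change of 0.52. The E-value was 0 for both.

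On the side of chlorophyll supply, most genes were higher. In chlorophyll synthesis 27 of 30 listed genes rose and 3 fell (median 0.73), with magnesium chelatase, which inserts the ion that STAY-GREEN removes, at 1.07 for ChlI-2 (evm.TU.BraA06000196) and 1.16 for ChlI-1 (evm.TU.BraA03005149). Against this, the 3 that fell were all of the listed genes for glutamyl-tRNA reductase, an enzyme at the start of the pathway. One for reductase 2 (evm.TU.BraA09000459) had 3761 in doubled haploid and 509 in autotetraploid leaves, a log2 fold change of -2.88. Another for reductase 2 (evm.TU.BraA01002111) was at -0.32, and that for reductase 1 (evm.TU.BraA01002257) at -0.67. Of 27 genes for chlorophyll a-b binding proteins, 23 rose and 4 fell, with a median of 0.51. One matching chlorophyll a-b binding protein 1 (evm.TU.BraA07001338) rose, with means of 701 and 3047, while one matching protein 36 (evm.TU.BraA02003738) fell, with 11247 and 5855.

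Genes known from senescing leaves were mostly lower. Of 10 listed, 3 rose and 7 fell, and their median was -1.26. The cysteine protease SAG12 (evm.TU.BraA06000198) fell from 4804 to a mean of 4.86, with autotetraploid libraries at 1.98, 5.04 and 7.56 normalised counts. WRKY53, an early senescence regulator (evm.TU.BraA01001618), had means of 6366 and 1819, and a gene matching the rice protease SAG39 (evm.TU.BraA01003629) had 3212 and 548. The 3 rises all had SAG12 as best hit and means under 100; the first of them, evm.TU.BraA07001815, held 8.72, 9.25 and 9.86 normalised counts in doubled haploid and 50.4, 53.4 and 56.1 in autotetraploid libraries.

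**Figure D4:**
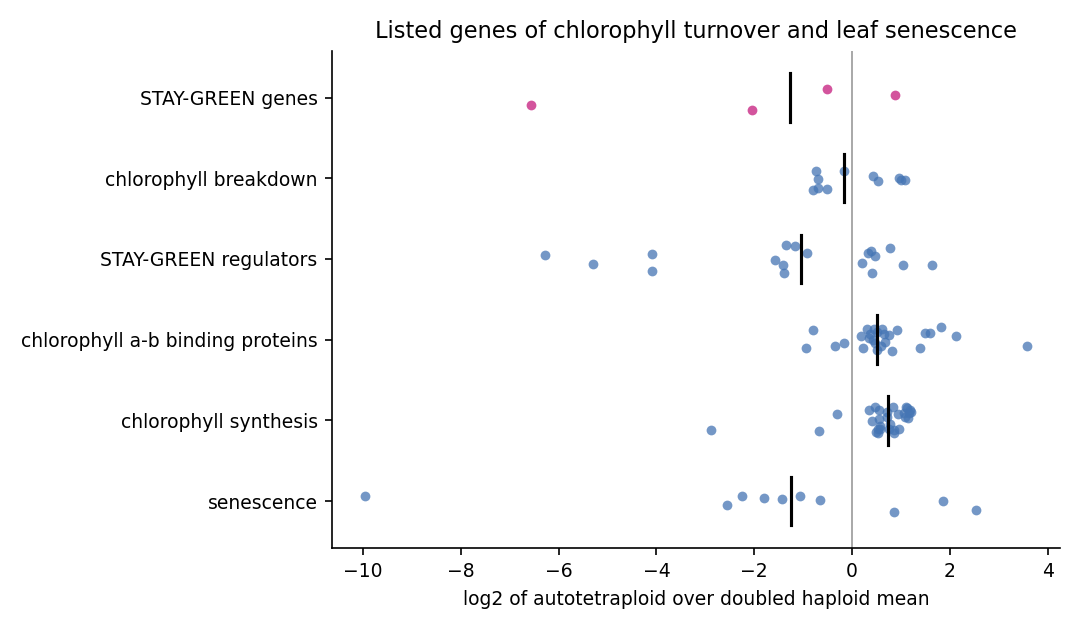
Log2 of the autotetraploid over the doubled haploid mean for the 4 STAY-GREEN genes and 5 lists of listed genes; each point is 1 gene and black bars are medians. Regulators and senescence genes reach far to the left, as the STAY-GREEN 2 gene does, while 27 of 30 chlorophyll synthesis genes lie to the right of 0.

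Genes whose protein hit is named for another tissue are no clean measure of that tissue. Of 25 listed genes with flower or pollen names, 20 were lower in autotetraploid leaves, summing to 5309 normalised counts in doubled haploid and 3705 in autotetraploid leaves, with 1 gene at 0 in the latter. But 16 of them have agamous-like MADS-box names (4 higher and 12 lower), and these include flowering-time proteins such as AGL19, AGL16, AGL27 and AGL31, which are not confined to flowers. Of the 4 higher agamous-like genes, that for the AGL8 homolog (evm.TU.BraA03004665) rose most. It had 86.5 in doubled haploid and 304 in autotetraploid leaves. Pollen names had 1 higher and 7 lower gene. Of SEPALLATA proteins, which specify floral organs, SEPALLATA 1 (evm.TU.BraA10000355) was listed under that name, at 39.0 in doubled haploid and 22.3 in autotetraploid leaves. Proteins of this family also carry agamous-like names. The gene for the AGL9 homolog (evm.TU.BraA08002896) had 20.5 and 7.55, and that for AGL3 (evm.TU.BraA09005338) was higher, with 506 and 622. Root names had 5 higher and 6 lower genes (7954 and 8753), and vascular names 3 and 3 (288 and 213, with 2 laccase genes at 0 in autotetraploid leaves). Leaf mesophyll markers were higher in 33 of 38 cases. The part of tissue make-up in the STAY-GREEN changes was not tested.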

How the data were processed

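Messenger RNA was sequenced from 6 leaf libraries. DESeq 1.18.0, HTSeq 0.6.1, TopHat2 2.0.12 and Bowtie2 2.2.3 are named, without roles, per the submitters' processing notes; build and annotation are not given in the sources used here. As to units, the deposited table is labelled FPKM, but per the file headers it holds read counts, and its values are a signal of 1 normalised mean per group. Its deposited log2 column equals the log2 ratio of these means within 5e-05. The deposited p-values, raw and adjusted, come from a test by the authors. The ratio of adjusted p to p gave 34980 genes tested.

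Steps of 1 read between low means gave the size factors, 0.926 to 1.012 in autotetraploid and 0.917 to 1.12 in doubled haploid libraries; library totals were not used here. Whole reads matching a mean within 0.55 units of its last digit were then searched for. Of means above 0 and under 100, 3385 of 3385 and 3280 of 3280 had 1 solution. The search was tested on simulated data. Recovered libraries carry no replicate number, and the order in which they are given has no meaning. Intervals are exact binomial, at 95%, and cover counting error only. Their reads were approximated as the group mean divided by the average step of 1 read, also where the whole reads were known.

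Members and lists were chosen with earlier results of these data known. Lists are patterns over the Swiss-Prot text. For naming, a rule picked in each list the 3 genes with the smallest adjusted p and the first of the rarer direction. Not every pick is named in the text: for chlorophyll a-b binding proteins and tissue names some are left out. Further regulators, breakdown and synthesis enzymes, floral genes and neighbours were named after their values were seen. The table cannot show genes that did not pass. None of the identifiers (0) matched the reference gene table, so no coordinates or sequences are given. Python 3.11.15, NumPy 2.4.6, pandas 2.3.3, SciPy 1.17.1 and matplotlib 3.10.9 were used.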

Additional observations from a re-analysis of the deposited data

How the results depend on the processing

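The direction of the 4 STAY-GREEN changes could not turn under pseudocounts or under a rescaling smaller than each change. Libraries were left out only for BraA03002933, whose groups do not overlap, and in the doubled haploid group of BraA08001500. All libraries of that group lay below the autotetraploid mean of BraA08001500, so the direction could not turn there either. These alternatives therefore show the range of sizes only. Listed genes with a mean of at least 500 had a median log2 fold change of 0.25, and rescaling them to 0 gave -2.30 for BraA01001706, -0.76 for BraA03005404 and 0.62 for BraA08001500. A pseudocount of 10 gave -5.02 for BraA03002933. Leaving out each library in turn gave -7.02 to -6.18 for BraA03002933 and, in the doubled haploid group only, 0.85 to 0.90 for BraA08001500. At 2-fold or more, 0 members were higher. The summed level, at a log2 fold change of -1.22, became -0.57 without BraA01001706, -1.03 without BraA03002933, and -1.57 without BraA03005404 or without BraA08001500. Among genes changed at least 2-fold, the share that was higher was 100% of 2 chlorophyll breakdown genes, 18.2% of regulators and 100% of chlorophyll a-b binding proteins, against 45.5%, 44.4% and 85.2% of all listed ones. For senescence genes it was 0% with a mean of at least 100 and 0% with 1 gene per protein hit, against 3 of 10 among all listed ones. Regulators with a mean of at least 100 were 57.1% higher genes (8 higher and 6 lower), which turns the majority. With an E-value of at most 1e-50, added after seeing the data, 25.0% of chlorophyll breakdown genes were higher. Fewer genes enter each of these subsets. No paired analysis was possible because the columns carry no replicate numbers.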
